A study of Homo sapiens with 6 samples.

Results

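The genes described here are the human zinc finger genes named ZNF plus a number that lie outside chromosome 19, the chromosome on which a large share of this gene family is packed. They were chosen by symbol and position alone: of 11363 genes listed in the table, 365 had a symbol made of ZNF, digits and at most a letter suffix, and 197 of these lay on a chromosome other than 19. The 197 genes were spread over 20 chromosomes. GENCODE release 29 gave 192 of them as protein coding and 5 as pseudogenes. Another 5 listed symbols with a hyphen, which name antisense or divergent transcripts such as ZNF710-AS1, were not counted among them.

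RNA was sequenced from 2 groups of NOMO-1 cells, an established human line of monocytic acute myeloid leukaemia in which KMT2A is fused to MLLT3. In the first group MSLN had been knocked out (MSLN-KO, 3 libraries), and the second was the parental line (WT, 3 libraries). No agent or time point is named for either group. The labels do not say how the knockout was made, whether the MSLN-KO cells are 1 clone or a pool, or whether libraries of a group came from separate cultures, so p-values reflect the spread among these 6 samples and that spread may be technical.

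Most ZNF proteins are built from tandem Cys2His2 zinc fingers, small folds held together by a zinc ion, several of which in a row read a DNA sequence. Many also carry a KRAB domain, which recruits the corepressor TRIM28 and, through it, the histone methyltransferase SETDB1, and many KRAB zinc fingers silence transposable elements. The name ZNF also covers proteins of other kinds, among them RNA-binding proteins, ribosome factors and ZNF185, a LIM-domain protein of the actin cytoskeleton.

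Promoters of these genes were mostly rich in CpG pairs. In the 250 bases upstream of the start, 160 of the 197 genes (81.2%) had a RefSeq entry (build GRCh38.p14), taken at the start nearest to the GENCODE one. No limit was set on the distance between the starts, which was 56285 bases for ZNF131 and 55221 bases for ZNF638. The median ratio of observed to expected CpG pairs over the 160 genes was 0.83, against 0.56 over the 35114 promoters of the table, and 83.1% of them reached a ratio of 0.6, against 47.5% of all promoters. A GC box (GGGCGG or CCGCCC, that is, both strands) was found in 62.5% of them and in 42.6% of all promoters, CCAAT or ATTGG in 40% and 32.01%, and TATAAA or TTTATA in 3.75% and 10.7%. The share that reached 0.6 was 79.5% of the genes that rose in MSLN-KO cells, 82.4% of those that fell and 84.6% of those not called. The 35114 promoters hold all starts in the promoter table, of genes listed here or not, while the 160 are a single start each of listed genes. The contrast is thus not one between zinc finger genes and other listed genes. These shares are descriptions without a test, and a letter match is not a binding site.

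Upstream stretches of 4 genes are shown because the results below turn on their genes: the 2 largest rises (ZNF185 and ZNF277) and 2 of the largest falls, both on chromosome 15 (ZNF609 and ZNF770). They are printed 5′ to 3′ on the strand of the gene, from RefSeq on GRCh38.p14, with CpG pairs in capitals. The stretches lie at chrX:152914192-152914441 (plus strand), chr7:112206445-112206694 (plus strand), chr15:64460328-64460577 (plus strand) and chr15:34988288-34988537 (minus strand).
ZNF185: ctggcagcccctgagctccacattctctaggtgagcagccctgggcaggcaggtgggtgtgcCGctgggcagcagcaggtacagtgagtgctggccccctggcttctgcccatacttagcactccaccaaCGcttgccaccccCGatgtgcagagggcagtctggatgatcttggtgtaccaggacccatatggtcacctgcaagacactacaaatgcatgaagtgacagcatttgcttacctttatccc
ZNF277: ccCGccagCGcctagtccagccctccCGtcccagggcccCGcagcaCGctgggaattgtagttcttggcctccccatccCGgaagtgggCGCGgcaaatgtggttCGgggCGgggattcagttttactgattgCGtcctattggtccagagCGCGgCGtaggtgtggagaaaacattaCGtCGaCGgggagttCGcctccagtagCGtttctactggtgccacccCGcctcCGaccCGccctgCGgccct
ZNF609: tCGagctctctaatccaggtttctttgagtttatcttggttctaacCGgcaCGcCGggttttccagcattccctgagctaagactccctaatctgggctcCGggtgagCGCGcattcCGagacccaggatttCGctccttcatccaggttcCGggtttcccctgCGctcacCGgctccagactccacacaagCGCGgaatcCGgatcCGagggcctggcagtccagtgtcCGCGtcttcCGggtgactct
ZNF770: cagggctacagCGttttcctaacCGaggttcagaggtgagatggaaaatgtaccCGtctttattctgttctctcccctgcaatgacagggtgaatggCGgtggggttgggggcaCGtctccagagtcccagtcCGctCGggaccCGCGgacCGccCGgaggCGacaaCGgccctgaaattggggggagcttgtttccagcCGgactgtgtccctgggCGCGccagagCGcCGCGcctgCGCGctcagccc
The ZNF185 stretch held 3 CpG pairs, a ratio of 0.143, and the others 23 (ZNF277, 0.889), 19 (ZNF609, 0.894) and 21 (ZNF770, 0.822). The ZNF185 promoter was thus among the 27 of 160 below a ratio of 0.6. RefSeq gives 4 starts for ZNF185, and gene-level values do not show which of them was used.

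The check of the labels came from MSLN (ENSG00000102854.16, GRCh38 chromosome 16, 760762 to 768865), which encodes the surface glycoprotein mesothelin. It had 45.7, 46.9 and 45.3 CPM (counts per 1000000 reads, scaled by TMM) in MSLN-KO libraries, against 153.2, 122.9 and 105.9 CPM in WT libraries, with a log2 change of -1.43 (SE 0.10, adjusted p = 1.5e-07). Its transcript was lower in every MSLN-KO library but not absent. The listed genes held 25230229 to 30804446 reads in MSLN-KO libraries and 23665824 to 25765425 reads in WT libraries. Of the markers checked, 10 of 10 for monocytic leukaemia cells were listed, with a summed level of 8134 to 8600 CPM in MSLN-KO and 17561 to 18245 CPM in WT libraries. LYZ makes up most of this sum (6081 CPM in MSLN-KO and 14540.1 CPM in WT cells on average); 7 of the 10 markers were lower, MPO most (45.7 ± 7.65 CPM in MSLN-KO and 744.4 ± 84.1 CPM in WT cells), CD33 was higher (74.7 ± 4.42 CPM in MSLN-KO and 56.7 ± 2.68 CPM in WT cells), and SPI1 and PTPRC were not called. Of 15 markers of other cell types 13 were not listed, and the remaining NKG7 and PECAM1 summed to 408.4 to 421.2 CPM in MSLN-KO and 537.3 to 574.1 CPM in WT libraries. In these bulk libraries fewer cells of a kind and less RNA per cell cannot be told apart, and the part of the marker change in the results below was not tested.

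More zinc finger genes rose than fell in MSLN-KO cells, and most of the changes were small. Of the 197 genes, 47 (23.9%) were higher and 23 (11.7%) lower at an adjusted p under 0.05 from limma on log2(CPM + 1), two-sided, with Benjamini-Hochberg adjustment over all 11363 genes; 127 were not called. Over all listed genes 22.4% were called higher and 23.3% lower, so the share of rises was near the background and the share of falls was below it. The median log2 change was 0.07 over the 197 genes and 0.01 over all listed genes, and 128 of the 197 changes were above 0. Among the called zinc finger genes the median absolute log2 change was 0.33, against 0.36 over all called genes. A log2 change of at least 1 in either direction was reached by 2 of the 197 genes, ZNF185 and ZNF609, and one of at least 0.5 with a call by 13 (6 rises and 7 falls).

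The count of rises depended on single libraries. It was 29 without MSLN-KO replicate 3 and 26 without WT replicate 3, against 47 with all 6 libraries. MSLN-KO replicate 3 was the highest of its group in 113 of the 197 genes (57.4%), against 42.3% over all listed genes, and in 36 of the 47 genes that rose. WT replicate 3 was the lowest of its group in 23 of those 47. Relative to the WT mean, the median gene of the 197 stood at 0.06, 0.04 and 0.12 log2 in MSLN-KO replicates 1 to 3 and at -0.01, 0.03 and -0.02 in WT replicates 1 to 3, so the groups did not overlap in this median. They came close, with 0.045 in MSLN-KO replicate 2 and 0.028 in WT replicate 2. This gap is smaller than the SD of 0.034 between libraries within groups. Gene by gene, MSLN-KO libraries lay wholly above WT libraries for 58 genes and wholly below for 29, together 44.2% of the 197, against 54.7% of all listed genes. Apart from 4 genes that were called higher with overlapping groups (ZNF652, ZNF687, ZNF334 and ZNF731P), every called gene had groups that did not overlap.

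**Figure D1:**
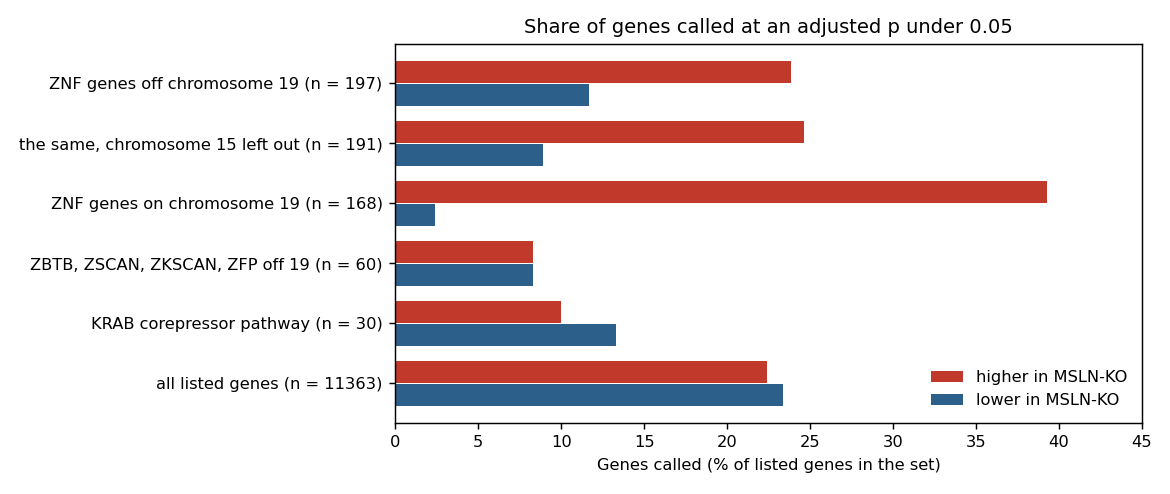
Bars give the percentage of listed genes in each set that were called higher (upper bar) or lower (lower bar) in MSLN-KO than in WT libraries at an adjusted p under 0.05, with the number of genes in each set beside its name. Zinc finger genes off chromosome 19 had 23.9% higher and 11.7% lower, and those on chromosome 19 had 39.3% higher and 2.38% lower.

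Among the 197 genes, ZNF185 had the largest change by far; on chromosome 19, 8 ZNF genes changed by at least 1 on the log2 scale, the highest at 4.19. The gene (ENSG00000147394.20, chromosome X, 152914442 to 152973480, plus strand) encodes a LIM-domain protein that binds actin, and despite its name it is not a Cys2His2 finger protein. It had 22.1, 23.5 and 20.4 CPM in MSLN-KO libraries, against 0.122, 0.310 and 0.253 CPM in WT libraries. The MSLN-KO libraries held 569, 624 and 649 reads of it and the WT libraries 3, 8 and 6 reads. Its mean of 22.0 ± 1.56 CPM in MSLN-KO cells was 96.4 times its mean of 0.2282 ± 0.096 CPM in WT cells (SD, n = 3 each), with a log2 change of 4.23 (SE 0.11, adjusted p = 1.9e-11). At such low WT counts the log2 change depends on the pseudocount: it was 4.96 with a pseudocount of 0.5 and 2.37 with 5, called in both cases. The table holds only genes with 4.90 CPM or more in 3 or more libraries, so ZNF185 was listed through its MSLN-KO values and had to differ; genes as low as its WT level in both groups were not analysed here. Of its 10 listed neighbours outside the family within 1 Mb, 2 were higher and 4 lower, with a median log2 change of -0.06. Its CpG-poor upstream stretch is the first of those printed above.

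The next rises came from genes that were already expressed in parental cells. ZNF277 (ENSG00000198839.10, chromosome 7, 112206588 to 112343096, plus strand), whose protein binds a protein of the small ribosomal subunit, had 29.5, 27.2 and 34.1 CPM in MSLN-KO libraries, against 16.2, 16.3 and 13.5 CPM in WT libraries. That is 1.97-fold (log2 change 0.93, SE 0.10, adjusted p = 6.2e-06), and the groups did not overlap. ZNF718 (chromosome 4, 124480 to 202303) had 23.6, 22.9 and 25.1 CPM in MSLN-KO libraries, against 11.5, 14.7 and 12.8 CPM in WT libraries, a 1.83-fold rise (log2 change 0.83, SE 0.09, adjusted p = 1e-05). ZNF783 (chromosome 7, 149262171 to 149297302) had 10.5, 10.1 and 11.4 CPM in MSLN-KO libraries, against 7.71, 5.69 and 5.39 CPM in WT libraries, a 1.7-fold rise (log2 change 0.70, adjusted p = 0.00043). WT replicate 1 was the highest WT library for this gene and still lay below the lowest MSLN-KO library. ZNF767P, a pseudogene on the same stretch of chromosome 7 (149547154 to 149624752), had 9.28, 6.89 and 10.4 CPM in MSLN-KO libraries, against 5.51, 5.38 and 4.93 CPM in WT libraries, with a log2 change of 0.64 (adjusted p = 0.0014). Its MSLN-KO values were spread more widely than its WT values.

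The remaining 7 of the 12 largest rises were 1.36-fold to 1.49-fold. ZNF124 (chromosome 1, 247121975 to 247172016) had 51.2, 56.0 and 61.3 CPM in MSLN-KO libraries, against 38.4, 40.9 and 40.3 CPM in WT libraries (log2 change 0.48, adjusted p = 0.00013). ZNF501 rose 1.49-fold (adjusted p = 0.0049) at a low level of 7.07, 7.04 and 7.67 CPM in MSLN-KO libraries, against 4.69, 5.92 and 3.96 CPM in WT libraries. ZNF141 averaged 32.89 ± 3.89 CPM in MSLN-KO and 23.85 ± 2.83 CPM in WT cells, and ZNF721 33.33 ± 2.6 CPM in MSLN-KO and 24.52 ± 0.936 CPM in WT cells (SD, n = 3 each; adjusted p = 0.0024 and 0.00049). ZNF879 averaged 6.015 ± 0.317 CPM in MSLN-KO and 4.225 ± 0.0924 CPM in WT cells (log2 change 0.42, adjusted p = 0.0041), and ZNF25 rose 1.4-fold (adjusted p = 0.0021). ZNF501 and ZNF879 reached the listing limit of 4.90 CPM in 3 or more libraries only through their MSLN-KO values. The listing thus favoured a rise of both, and their calls carry less weight. ZNF117 averaged 41.83 ± 6.56 CPM in MSLN-KO and 30.78 ± 3.14 CPM in WT cells (adjusted p = 0.0048), but it shares exons on the same strand with ERV3-1, the envelope gene of an endogenous retrovirus, so reads of the pair cannot be assigned with certainty. Each of these 12 rises was called in all 14 other settings of the fit that were run (another pseudocount, filter, scaling, variance model or replicate block, or 1 library left out).

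**Figure D2:**
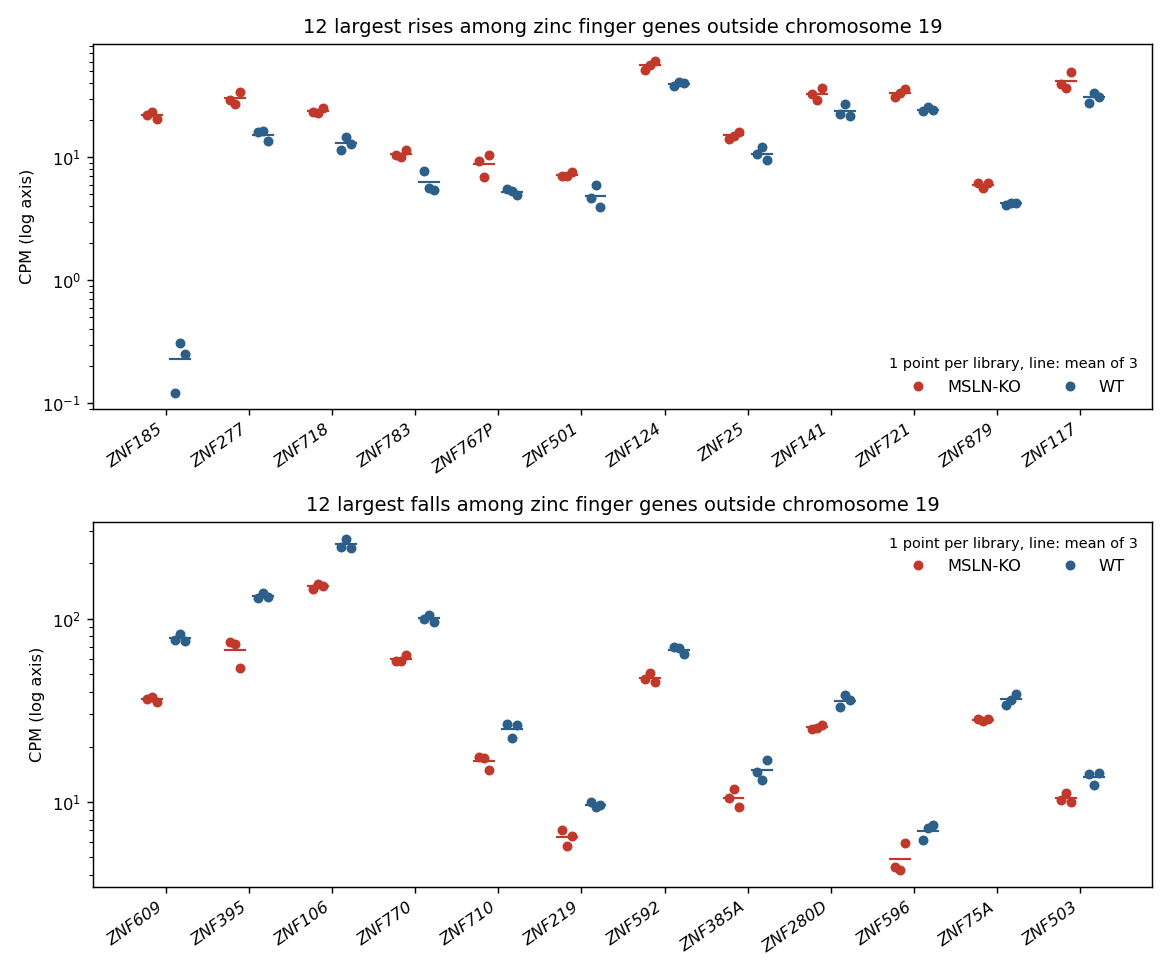
Each point is the CPM of 1 library on a log axis, and each line the mean of 3 libraries, for the 12 largest rises (upper panel) and the 12 largest falls (lower panel) among called genes whose groups did not overlap. ZNF185 lies between 20.4 and 23.5 CPM in the MSLN-KO libraries and at 0.310 CPM or less in the WT libraries, while the means of the other genes differ by at most 2.15-fold.

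The largest fall was that of ZNF609 (ENSG00000180357.10, chromosome 15, 64460742 to 64686068, plus strand), a nuclear regulator studied in neurons and muscle precursors. It had 36.6, 37.3 and 35.2 CPM in MSLN-KO libraries, against 76.3, 82.9 and 75.6 CPM in WT libraries. Its mean of 36.36 ± 1.03 CPM in MSLN-KO cells was 2.15-fold lower than its mean of 78.25 ± 4.00 CPM in WT cells (SD, n = 3 each; log2 change -1.08, SE 0.06, adjusted p = 1.9e-08), and the libraries within each group lay close together. ZNF395 (ENSG00000186918.14, chromosome 8, 28345585 to 28402701, minus strand), a factor linked to the response to low oxygen, had 74.5, 72.8 and 53.8 CPM in MSLN-KO libraries, against 128.8, 138.7 and 131.9 CPM in WT libraries (1.99-fold lower, log2 change -0.99, SE 0.10, adjusted p = 4.2e-06). MSLN-KO replicate 3 was the lowest library for this gene. Its 10 listed neighbours within 1 Mb had a median log2 change of -0.10, and 3 of them were lower.

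ZNF106 (chromosome 15, 42412823 to 42491141), an RNA-binding protein that takes part in splicing, fell 1.69-fold. It had 145.7, 154.7 and 151.1 CPM in MSLN-KO libraries, against 246.0, 273.7 and 242.5 CPM in WT libraries (log2 change -0.75, adjusted p = 4.2e-07). ZNF770 (chromosome 15, 34978341 to 34988287) had 58.7, 58.6 and 62.9 CPM in MSLN-KO libraries, against 100.1, 104.4 and 96.4 CPM in WT libraries (1.67-fold lower, log2 change -0.73, adjusted p = 4.9e-07). Neither gene had an MSLN-KO library near its WT range.

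Falls outside chromosome 15 were smaller than that of ZNF395. ZNF219, a partner of the cartilage factor SOX9, averaged 6.43 ± 0.659 CPM in MSLN-KO and 9.615 ± 0.294 CPM in WT cells (log2 change -0.52, adjusted p = 0.00089), with exons that overlap ARHGEF40 on the other strand. ZNF385A, an RNA-binding protein linked to p53, averaged 10.52 ± 1.13 CPM in MSLN-KO and 14.91 ± 1.85 CPM in WT cells (log2 change -0.46, adjusted p = 0.0031). ZNF503, a developmental repressor, averaged 10.45 ± 0.677 CPM in MSLN-KO and 13.62 ± 1.07 CPM in WT cells (log2 change -0.35, adjusted p = 0.0069). ZNF596 averaged 4.872 ± 0.956 CPM in MSLN-KO and 6.953 ± 0.673 CPM in WT cells (log2 change -0.45, adjusted p = 0.012), a change no longer called when WT replicate 3 was left out (adjusted p = 0.0552). It reached the listing limit of 4.90 CPM in 3 or more libraries only through its WT values, so the listing favoured a fall. The neighbours of the 17 genes that fell on other chromosomes had median log2 changes between -0.18 and 0.28.

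All 6 zinc finger genes of chromosome 15 fell: besides ZNF609, ZNF106 and ZNF770 these were ZNF710, ZNF592 and ZNF280D. Over all listed genes of chromosome 15, 83% (308 of 371) were lower and the median log2 change was -0.57, so a fall of all 6 stands beside a fall of most genes of the chromosome. ZNF592, part of a zinc finger complex that binds the chromatin reader ZMYND8, had 46.8, 50.6 and 44.9 CPM in MSLN-KO libraries, against 69.8, 68.9 and 64.2 CPM in WT libraries (log2 change -0.50, adjusted p = 3.8e-05). ZNF280D had 25.0, 25.4 and 26.3 CPM in MSLN-KO libraries, against 32.8, 38.2 and 35.8 CPM in WT libraries (log2 change -0.46, adjusted p = 0.00021). ZNF710 had 17.6, 17.4 and 14.9 CPM in MSLN-KO libraries, against 26.5, 22.4 and 26.2 CPM in WT libraries (log2 change -0.56, adjusted p = 0.00027). For ZNF710 an antisense gene, ZNF710-AS1, overlaps its exons and averaged 4.42 ± 0.915 CPM in MSLN-KO and 5.63 ± 0.342 CPM in WT cells (log2 change -0.30, adjusted p = 0.074).

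The neighbours of these 6 genes moved with them. Of the listed genes outside the family within 1 Mb, 17 of 17 were lower around ZNF609, 21 of 25 around ZNF106, 8 of 11 around ZNF770, 20 of 25 around ZNF710, 6 of 7 around ZNF592 and 4 of 4 around ZNF280D. The median log2 change of the neighbours ran from -0.78 (around ZNF280D) to -0.47 (around ZNF592), and 4 of the 6 zinc finger genes lay below the median of their own neighbours. ZNF609, at -1.08, stood beside neighbours with a median of -0.61, and ZNF280D, at -0.46, beside neighbours with a median of -0.78. Without these 6 genes, 47 of 191 zinc finger genes were higher and 17 lower, with a median log2 change of 0.08.

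**Figure D3:**
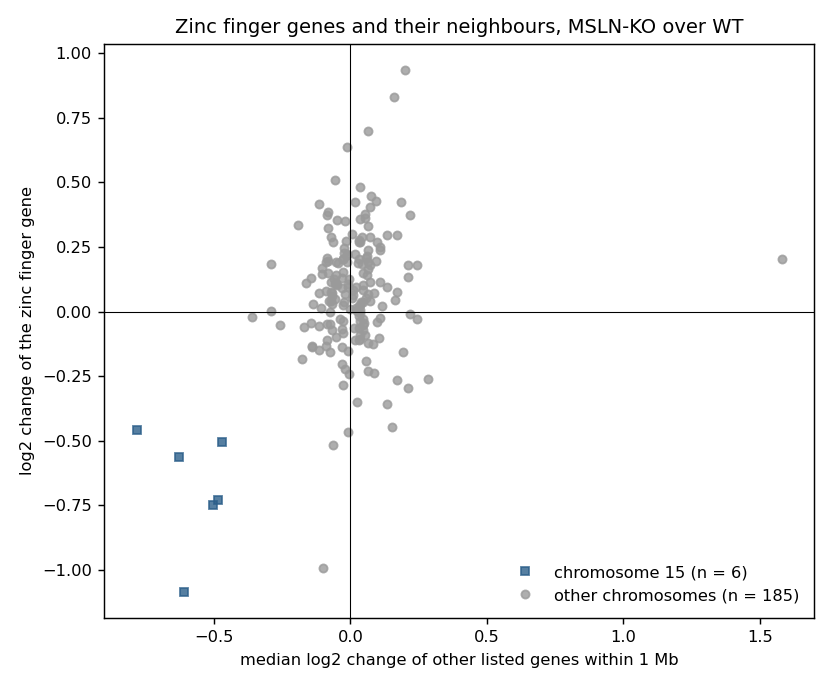
Each point is 1 zinc finger gene: its log2 change, MSLN-KO over WT (vertical axis), against the median log2 change of listed genes outside the family within 1 Mb (horizontal axis), for 191 genes with such neighbours and without ZNF185. The 6 genes of chromosome 15 (squares) form the lower left group, with neighbour medians between -0.78 and -0.47, and the 185 others lie around 0; the point farthest right, ZNF18, rests on 2 neighbours.

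Other chromosomes differed in their counts. Chromosome 1 had 6 higher and 0 lower of 17 genes, chromosome 7 had 7 higher and 2 lower of 24, chromosome X had 4 higher and 0 lower of 9, and chromosome 4 had 3 higher and 1 lower of 5. The 3 that rose on chromosome 4 were ZNF718, ZNF141 and ZNF721, which follow each other near the end of the short arm between 124480 and 499156. On chromosome 8, 2 of 14 genes were higher and 3 lower, and on chromosome 10, 3 of 13 were higher and 4 lower. Chromosomes 6 and 9 had 0 called of 6 and 0 of 9 by limma, and 0 of either reached an unadjusted p under 0.05. Over all listed genes 22.4% were called higher and 23.3% lower. With so few zinc finger genes on each chromosome the counts above are descriptions.

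**Figure D4:**
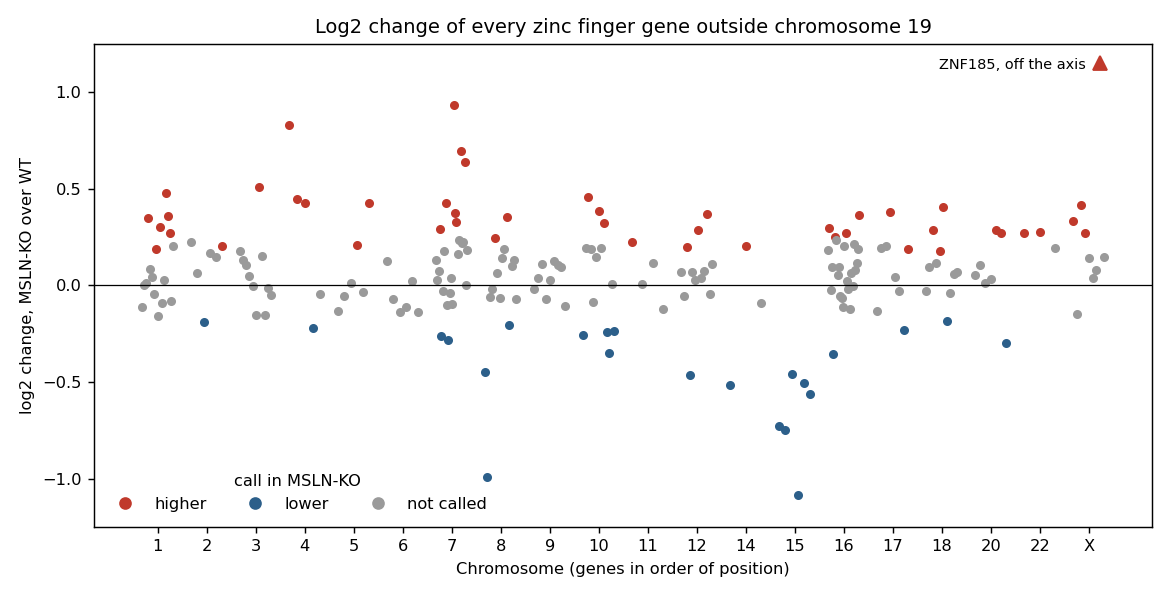
Each point is 1 of the 197 zinc finger genes, placed by chromosome and, within it, by position, with its log2 change, MSLN-KO over WT, on the vertical axis and its call as colour. The 6 genes of chromosome 15 lie between -1.08 and -0.46, and ZNF185 on chromosome X, at 4.23, is drawn as a triangle at the upper edge.

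Zinc finger genes arose by local duplication and many sit in runs. Runs were drawn after the values had been seen, as 4 or more of the 197 genes with gaps of at most 500 kb, which gave 10 runs with 64 genes. In these, 19 genes were higher and 3 lower, with a median log2 change of 0.12. Of the 127 genes outside the runs and chromosome 15, 28 were higher and 14 lower, with a median of 0.06. The background over all listed genes was 22.4% called higher and 23.3% called lower. The share of rises was above this background in the runs and near it outside them, and the share of falls was below it in both. These differences were not tested, and the counts here and in the single runs below are descriptions. In the run on chromosome 18 (35241030 to 35377337), 3 of 4 genes were higher: ZNF397, ZNF24 and ZNF396. ZNF24, a SCAN-domain repressor, averaged 170.1 ± 11.1 CPM in MSLN-KO and 149.9 ± 2.44 CPM in WT cells (log2 change 0.18, adjusted p = 0.022), a call lost without the variance trend and without MSLN-KO replicate 3, WT replicate 1 or WT replicate 3 (adjusted p up to 0.0671). The ZNF396 call was lost without MSLN-KO replicates 2 or 3 or WT replicates 1 or 3 (adjusted p up to 0.0937). ZNF396 also had the lowest mean CPM of the 197 genes, near the listing limit of 4.90 CPM in 3 or more libraries. The listing may thus have favoured its rise, and its call carries less weight. In the run on chromosome 1 (247036784 to 247331846), 3 of 5 were higher: ZNF124, ZNF731P and ZNF496. ZNF731P was not called without MSLN-KO replicate 3, WT replicate 1 or WT replicate 3 (adjusted p up to 0.0602). ZNF496, whose protein binds the methyltransferase NSD1, averaged 46.18 ± 0.513 CPM in MSLN-KO and 38.21 ± 3.43 CPM in WT cells (log2 change 0.27, adjusted p = 0.0074).

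The run on chromosome 7 from 149126416 to 149867479 held 9 genes, of which 3 were higher (ZNF398, ZNF783 and ZNF767P) and 0 lower, with a median log2 change of 0.22 and a range from 0.00 to 0.70. The other run on chromosome 7 (64307459 to 65401135) was mixed: ZNF680 and ZNF117 rose, ZNF107 fell, and 4 of its 7 genes were not called. Without MSLN-KO replicate 3, ZNF680 missed the threshold (adjusted p = 0.0600). The runs on chromosome 3 (44431720 to 44737083), chromosome 10 (37776526 to 38150293) and chromosome 12 (132918308 to 133214831) had 1 of 5, 1 of 4 and 2 of 7 genes higher and 0 lower. On chromosome 8 (144720907 to 145002895) 1 of 7 was higher and 1 lower. Thus neighbouring zinc finger genes of a run did not all pass the test, and near-identical copies within such runs can share reads.

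**Figure D5:**
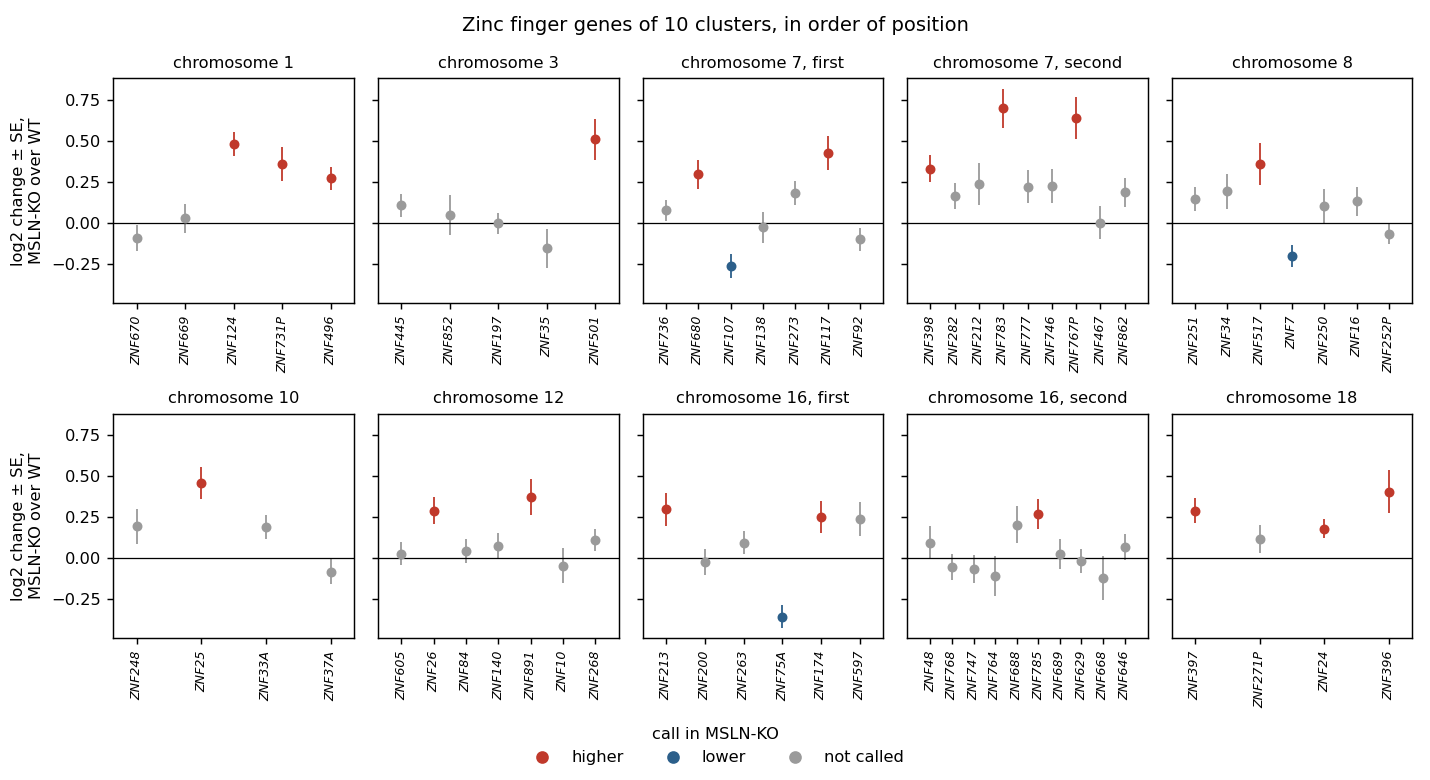
Each panel is 1 run of 4 to 10 zinc finger genes in order of position, with the log2 change, MSLN-KO over WT, and its SE for each gene, coloured by call. The run on chromosome 18 and the second run on chromosome 7 lie at or above 0 throughout, and the second run on chromosome 16 is centred on 0.00.

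Chromosome 16, which carries MSLN, held 24 of the genes. Of these 4 (16.7%) were higher and 1 (4.17%) lower, against 22.4% and 23.3% over all listed genes, with a median log2 change of 0.09. ZNF276, which overlaps exons of FANCA and VPS9D1, averaged 27.78 ± 1.71 CPM in MSLN-KO and 21.42 ± 2.01 CPM in WT cells (log2 change 0.36, adjusted p = 0.0032). ZNF213 averaged 8.554 ± 0.685 CPM in MSLN-KO and 6.773 ± 0.482 CPM in WT cells, and ZNF785 8.597 ± 0.343 CPM in MSLN-KO and 6.955 ± 0.223 CPM in WT cells (adjusted p = 0.027 for each). ZNF174, a SCAN-domain repressor, averaged 12.81 ± 1.43 CPM in MSLN-KO and 10.57 ± 0.473 CPM in WT cells (log2 change 0.25, adjusted p = 0.048). These last 3 calls were each lost when any of several single libraries was left out. That of ZNF213 was lost without MSLN-KO replicates 2 or 3 or WT replicates 2 or 3 (adjusted p up to 0.0986), and that of ZNF785 without MSLN-KO replicate 1 or WT replicates 1 or 2 (adjusted p up to 0.101). That of ZNF174 was lost with the replicate block and without any 1 library other than MSLN-KO replicate 1 (adjusted p up to 0.152).

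The one fall on chromosome 16 was that of ZNF75A, which had 28.3, 27.5 and 28.4 CPM in MSLN-KO libraries, against 33.90, 36.03 and 38.92 CPM in WT libraries (log2 change -0.36, adjusted p = 0.0011); its exons overlap TIGD7 on the other strand. It lies in the run from 3129777 to 3443553, where ZNF213 and ZNF174 rose and where the 3 listed genes outside the family were not called. The run from 30378106 to 31084196 held 10 zinc finger genes, of which only ZNF785 was called, and 16 other listed genes, of which 4 were higher and 1 lower. The remaining 19 genes of chromosome 16 were not called, with log2 changes between -0.12 and 0.24. These were ZNF668, ZNF764, ZNF747, ZNF768, ZNF200, ZNF629, ZNF267, ZNF689, ZNF500, ZNF646, ZNF23, ZNF263, ZNF48, ZNF469, ZNF598, ZNF778, ZNF688, ZNF319 and ZNF597.

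By role, 18 genes were named as partners of corepressor or chromatin complexes, and 15 were listed. Of these 4 (26.7%) were higher and 2 (13.3%) lower, with a median log2 change of 0.06. These shares are near those of all 197 genes (23.9% and 11.7%), and the share of rises is near the 22.4% over all listed genes. ZNF217, a partner of the CoREST and CtBP corepressors that is amplified in several cancers, had 151.2, 149.6 and 149.9 CPM in MSLN-KO libraries, against 120.3, 135.6 and 118.0 CPM in WT libraries (log2 change 0.27, adjusted p = 0.0027). The MSLN-KO libraries were close together and all above the highest WT library. ZNF410, which activates CHD4, a subunit of the NuRD complex, averaged 66.52 ± 2.41 CPM in MSLN-KO and 57.55 ± 1.74 CPM in WT cells (log2 change 0.21, adjusted p = 0.011), with exons that overlap PTGR2 on the same strand. ZNF276 is described above. ZNF687 averaged 47.21 ± 3.7 CPM in MSLN-KO and 41.24 ± 2.22 CPM in WT cells (log2 change 0.19, adjusted p = 0.047); its groups overlapped, and the call was lost without the variance trend, with the replicate block, and without MSLN-KO replicates 1 or 2 or WT replicates 2 or 3 (adjusted p up to 0.188).

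The 2 that fell in this list were ZNF592 and ZNF512B (log2 change -0.30, adjusted p = 0.016). The ZNF512B call was lost without MSLN-KO replicate 3 or WT replicates 1 or 3 (adjusted p up to 0.0784). ZNF532, ZNF592 and ZNF687 form the zinc finger part of the ZMYND8-bound complex and did not move together: ZNF687 rose by 0.19, while ZNF592 fell by 0.50 and ZNF532 fell by 0.18 on the log2 scale. ZNF532 was chosen after its values were seen, and its call (adjusted p = 0.034) was lost with equal column totals, with the replicate block, and without MSLN-KO replicates 1 or 2 or WT replicates 1 or 2 (adjusted p up to 0.119). Of the members not called, ZNF644, a partner of the histone methyltransferases G9a and GLP, averaged 121.9 ± 7.24 CPM in MSLN-KO and 125.8 ± 7.99 CPM in WT cells. ZNF451, a SUMO ligase, averaged 116 ± 7.54 CPM in MSLN-KO and 114.3 ± 5.69 CPM in WT cells. ZNF143, an activator that binds near promoters, averaged 24.1 ± 0.816 CPM in MSLN-KO and 24.02 ± 1.39 CPM in WT cells. ZNF148, ZNF512, ZNF516 and ZNF618 had log2 changes between -0.01 and 0.10. ZNF281, a repressor and activator of stem cell genes, had a log2 change of -0.16 (adjusted p = 0.050), and ZNF746 one of 0.22 (adjusted p = 0.089), which passed the threshold with equal column totals and without WT replicate 1 (adjusted p down to 0.0251).

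Of 11 genes for RNA, ribosome or spindle proteins, all listed, 0 were higher and 3 (27.3%) lower, against 22.4% and 23.3% over all listed genes, with a median log2 change of -0.04. ZNF277, which rose and whose protein binds a protein of the small ribosomal subunit, was not in this list. The count of 0 rises thus rests on the choice of the list. The falls were those of ZNF106 and ZNF385A, given above, and of ZNF638, which silences unintegrated retroviral DNA together with the HUSH complex. ZNF638 had 162.3, 159.1 and 182.6 CPM in MSLN-KO libraries, against 191.1, 198.9 and 184.8 CPM in WT libraries (log2 change -0.19, adjusted p = 0.023). The highest MSLN-KO library came close to the lowest WT library, and the call was lost with equal column totals, without the variance trend, and without MSLN-KO replicates 1 or 2 or WT replicates 1 or 2 (adjusted p up to 0.101). ZNF207, a spindle assembly protein averaged 261.3 ± 12.3 CPM in MSLN-KO and 266.5 ± 8.7 CPM in WT cells (log2 change -0.03, adjusted p = 0.70). ZNF622 and ZNF593, factors of large ribosomal subunit maturation, had log2 changes of -0.13 and 0.00 (adjusted p = 0.10 and 0.99). ZNF598, the ubiquitin ligase that marks collided ribosomes, averaged 33.09 ± 2.26 CPM in MSLN-KO and 29 ± 2.24 CPM in WT cells (log2 change 0.19, adjusted p = 0.069), and passed the threshold with equal column totals and without MSLN-KO replicate 3 or WT replicate 1 (adjusted p down to 0.0284). ZNF326, ZNF330, ZNF346 and ZNF706 had log2 changes between -0.06 and 0.04.

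Among genes named as regulators of blood cells or development, 6 of 9 were listed, with 2 higher (ZNF185 and ZNF217) and 2 lower (ZNF395 and ZNF503). That is 33.3% each, against 22.4% higher and 23.3% lower over all listed genes, and with 6 genes these shares are descriptions. ZNF185, an actin-associated protein, was listed only through its MSLN-KO values, so its place among the rises was fixed by the listing. ZNF521, a regulator of immature blood cells had 192.2, 197.6 and 200.5 CPM in MSLN-KO libraries, against 183.3, 195.0 and 175.5 CPM in WT libraries. The groups overlapped and the change was not called (log2 change 0.09, adjusted p = 0.19). ZNF467 averaged 7.966 ± 0.536 CPM in MSLN-KO and 7.98 ± 0.869 CPM in WT cells. Of 6 genes named for imprinting or the silencing of repeats, 6 were listed and 0 called by limma, while 2 reached an unadjusted p under 0.05. ZNF445, which maintains imprints, averaged 70.49 ± 4.5 CPM in MSLN-KO and 65.49 ± 5.13 CPM in WT cells (log2 change 0.11, adjusted p = 0.24). ZNF597, itself an imprinted gene, averaged 9.165 ± 0.91 CPM in MSLN-KO and 7.626 ± 0.707 CPM in WT cells (log2 change 0.24, adjusted p = 0.080). ZNF33A had a log2 change of 0.19 (adjusted p = 0.050) and passed the threshold in 5 of the 14 other settings, among them those without MSLN-KO replicate 2 or WT replicate 2 (adjusted p down to 0.0257). Its near-identical copy ZNF33B was called higher (log2 change 0.39, adjusted p = 0.0019); reads of this pair may be split between the copies. ZNF202, ZNF41 and ZNF37A had log2 changes between -0.15 and -0.08; ZNF37A passed the threshold without MSLN-KO replicate 3 (adjusted p = 0.0418).

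KRAB zinc fingers act through a set of partner proteins. Of 30 genes listed for this pathway 3 (10%) were higher and 4 (13.3%) lower, against 22.4% and 23.3% over all listed genes, with a median log2 change of 0.04 against 0.01. TRIM28, the corepressor bound by KRAB domains, averaged 269.9 ± 32.8 CPM in MSLN-KO and 253 ± 23.7 CPM in WT cells (log2 change 0.09, adjusted p = 0.43). SETDB1 averaged 99.4 ± 1.01 CPM in MSLN-KO and 100.5 ± 2.53 CPM in WT cells (log2 change -0.02, adjusted p = 0.83). The largest rise was that of ATF7IP, a partner that stabilises SETDB1, with 145.4 ± 9.94 CPM in MSLN-KO and 100.9 ± 12.5 CPM in WT cells (log2 change 0.53, adjusted p = 0.00017). HDAC2 and the DNA methyltransferase DNMT3A rose by less (log2 changes 0.16 and 0.15, adjusted p = 0.027 and 0.040). CHD3, a remodeller of the NuRD complex, averaged 178.6 ± 5.77 CPM in MSLN-KO and 242.3 ± 4.4 CPM in WT cells (log2 change -0.44, adjusted p = 1.7e-05). The other falls were those of HDAC1, the heterochromatin protein gene CBX3 and ATRX, with log2 changes between -0.24 and -0.22.

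Per length of exon, the 197 genes were lower than the table as a whole. Their median level over the 6 libraries was 3.79 CPM per kb of exon, against 6.96 CPM per kb over all listed genes, and the median CPM without correction for length was 22.0 against 33.8. The highest mean CPM, which is not corrected for length, were those of ZNF207 (263.9 CPM), ZNF106 (202.3 CPM), ZNF521 (190.7 CPM), ZNF638 (179.8 CPM) and ZNF292 (178.0 CPM). ZNF292 averaged 168.9 ± 4.96 CPM in MSLN-KO and 187.1 ± 29.3 CPM in WT cells, and its change was within the spread between WT libraries (log2 change -0.14, adjusted p = 0.22). The lowest were ZNF396 (5.09 CPM), ZNF879 (5.12 CPM), ZNF212 (5.20 CPM), ZNF764 (5.25 CPM) and ZNF852 (5.65 CPM). Per kb of exon the order differed, with ZNF22 highest at 30.3 CPM per kb in MSLN-KO and 35.9 CPM per kb in WT cells. ZNF622 followed with 29.3 CPM per kb in MSLN-KO and 32.1 CPM per kb in WT cells, and ZNF521 with 31.6 CPM per kb in MSLN-KO and 29.7 CPM per kb in WT cells. The median spread within groups was 7.37% of the mean, against 6.47% over all listed genes.

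The counts of 2 sets of related genes stand beside those of the 197 genes (23.9% higher, 11.7% lower, median log2 change 0.07). Of the 168 listed ZNF genes on chromosome 19, 66 (39.3%) were higher and 4 (2.38%) lower, with a median log2 change of 0.17. Of 60 listed zinc finger genes of the ZBTB, ZSCAN, ZKSCAN and ZFP names off chromosome 19, 5 were higher and 5 lower (8.33% each), with a median of 0.04. The share called lower was thus higher among the 197 genes than in either set, and the share called higher and the median lay between them. Over all listed genes 22.4% were called higher and 23.3% lower, so each of these sets had a smaller share of falls than the background. Without the 6 genes of chromosome 15 the share called lower was 8.90%, near the 8.33% of the ZBTB, ZSCAN, ZKSCAN and ZFP genes. These are counts and medians side by side, and the differences between the sets were not tested. Exons of 26 of the 197 genes overlap those of another listed gene and exons of 93 overlap those of any annotated gene. The strand setting of the counting is not given in the sources used here, so reads of such pairs cannot be told apart.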

How the data were processed

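RNA of 3 MSLN-KO and 3 WT samples of NOMO-1 was made into stranded total RNA libraries with ribosomal RNA depletion, per the labels' protocols. The submitters' processing notes name STAR, featureCounts, edgeR and GRCh38 (hg38), and the annotation release and strand setting of the counting are not stated there. Values in the deposited table are CPM after TMM normalization by the authors. Column totals ran from 967718 to 1009572. Read numbers were obtained by dividing each value by the largest step that divides its column, and rest on that step.

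Identifiers were matched to symbols for 11354 of 11363 genes and to GENCODE release 29 positions (GRCh38, 1-based) for 11314. The groups were compared with limma 3.58.1 in R 4.3.3 (lmFit, eBayes with trend) on log2(CPM + 1) with all 6 libraries and no covariate; a gene was called when its two-sided p, adjusted by Benjamini-Hochberg, was under 0.05. Changes of low genes are understated on this scale. Folds divide mean CPM values. A minimum mean of 0.5 CPM removed 0 genes. The fit was also run on simulated data with the same spread for every gene and few changed genes. Both settings differ from these data, so that run checks the code only. Neighbours are listed genes outside the family that start within 1 Mb.

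Named genes are, of the called genes with non-overlapping groups, the 12 that rose most and the 12 that fell most, all members on chromosomes 15 and 16, those in the role lists, and the 5 highest and 5 lowest by mean CPM; others are named by their place in a run. The members and lists were chosen with earlier results of these data known, and runs, neighbour windows and promoters were added after the values were seen. Alternatives changed the pseudocount, filter, scaling, variance trend, replicate block, choice of members or 1 library at a time.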

Additional observations from a re-analysis of the deposited data

How the results depend on the processing

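The direction of each of the 70 called zinc finger genes was the same in all 14 other settings of the fit, and 37 of them (22 higher, 15 lower) were called in every one. The count of 47 genes called higher ran from 26 to 43 with 1 library left out: 29 without MSLN-KO replicate 3, 26 without WT replicate 3. The count of 23 called lower ran from 17 to 22, the median log2 change of members (the 197 genes), 0.0716, from 0.0493 to 0.0932, and the 34 named genes called from 28 to 33. With columns rescaled to equal totals, 53 were higher and 17 lower, with a median of 0.1038, and all listed genes then had a median of 0.039. The pseudocounts of 0.5 and 5, the filters, equal medians and the fit without variance trend gave 47 to 49 higher and 22 to 23 lower. Among single named genes, 33 calls in other settings were lost and 13 were gained.

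Replicate numbers come from the sample titles. Deviations of same-numbered samples from their group means correlated at 0.192, -0.169 and -0.0917, and not every sample correlated best with its own number. Such correlations, from 3 samples a group, cannot settle whether same-numbered samples were prepared together. The main fit used no pairing. With the replicate block 40 genes were higher and 21 lower, the median stayed at 0.0716, and 32 of the named genes were called. Tests on read counts with edgeR and DESeq2, planned as alternatives, were not run, and the alternative restricted to proteins with Cys2His2 fingers could not be run without protein sequences. With 3 samples a group and a lower limit near 4.90 CPM for a gene to be listed, weakly expressed zinc finger genes were not analysed here.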
